A study of Homo sapiens with 6 samples.

Results

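Messenger RNA of 10 genes from metalloprotease and inhibitor families was compared between prostate cancer cells and a derivative resistant to enzalutamide. Inhibitors among them are the tissue inhibitors of metalloproteinases TIMP1, TIMP2 and TIMP3 and the membrane-anchored RECK. The others are ADAM7, which has no working catalytic site, and the proteases ADAM28, ADAM9, ADAM15, ADAMTS1 and MMP14. All 10 were picked by name, with the contrast between the lines already known, from the 35554 genes in the count table. Values of these 10 genes are therefore given as a description and carry no p-value.

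The parental samples were LNCaP cells, an established line from a metastatic prostate carcinoma, and the resistant samples (LNCaP-enzaR) were LNCaP cells selected by continuous growth in enzalutamide, an inhibitor of the androgen receptor, and later kept on less drug. Each line was represented by 3 flasks grown to similar confluence, from which polyadenylated RNA was sequenced. The labels do not state whether enzalutamide was present at harvest, and the resistant phenotype comes from a single selected line, so that drug exposure and selection cannot be told apart. P-values given for other genes measure the spread between flasks of each line.

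Metalloproteases use a zinc ion to cut proteins. ADAM proteins sit in the plasma membrane and release the outer parts of other membrane proteins, ADAMTS proteases are secreted and cut proteoglycans such as versican and aggrecan, and matrix metalloproteinases (MMPs) cut collagens, laminins and other matrix proteins. TIMPs are secreted inhibitors that block the catalytic site, and TIMP3 differs from its relatives in binding to the matrix and in blocking several ADAM and ADAMTS enzymes as well as MMPs.

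The inhibitors split into a gene that went from near absence to a high level, a gene that was raised and others that were not, so the 250 bases before their starts are printed here for comparison. The sequences are from RefSeq (GRCh38.p14, plus strand), and capitals mark GC boxes (GGGCGG or its reverse complement), the motif bound by Sp1-type factors. Starts are those of RefSeq, and the end of the TIMP1 window lies within the gene span given below. Windows of 5 of the 10 genes were used, among them those of the 3 inhibitors printed here. TIMP2, the raised inhibitor, and ADAMTS1 could not be matched, and the remaining genes were left out. The comparison therefore lacks the window of the raised inhibitor.

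TIMP1, chrX:47582186-47582435: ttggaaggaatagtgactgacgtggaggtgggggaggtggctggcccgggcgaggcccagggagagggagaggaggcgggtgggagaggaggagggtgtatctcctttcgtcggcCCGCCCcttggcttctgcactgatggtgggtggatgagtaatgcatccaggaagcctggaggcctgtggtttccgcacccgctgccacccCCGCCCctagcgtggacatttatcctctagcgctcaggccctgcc
TIMP3, chr22:32801455-32801704: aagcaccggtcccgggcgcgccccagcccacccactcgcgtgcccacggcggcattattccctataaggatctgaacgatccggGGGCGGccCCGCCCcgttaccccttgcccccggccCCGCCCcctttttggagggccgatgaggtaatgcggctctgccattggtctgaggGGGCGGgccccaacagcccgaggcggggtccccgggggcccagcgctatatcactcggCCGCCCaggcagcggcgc
RECK, chr9:36036663-36036912: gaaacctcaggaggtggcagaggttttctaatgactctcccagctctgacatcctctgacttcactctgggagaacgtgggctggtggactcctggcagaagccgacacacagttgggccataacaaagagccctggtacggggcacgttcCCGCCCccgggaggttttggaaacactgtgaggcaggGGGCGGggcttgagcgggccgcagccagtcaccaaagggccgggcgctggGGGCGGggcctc

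The TIMP3 window held 26 CpG dinucleotides and 5 GC boxes, and 80.4% of all 34788 RefSeq windows of this length held fewer CpG dinucleotides (median 11). TIMP1 and RECK held 12 CpG dinucleotides each, more than 51.5% of windows, with 2 and 3 GC boxes. Of the windows not printed, that of ADAM15 held 36 CpG dinucleotides (95.1% of windows held fewer) and 6 GC boxes. That of MMP14 held 7 (41.2%) and 1. The ADAM15 window lies within its gene span, as does the end of the MMP14 window. A GC box occurred in 42.6% of all windows. Motifs were sought on both strands. A CCAAT box, present in 32.0% of windows, occurred 1 time in the TIMP3 window and overlapped none of its GC boxes, and neither TIMP1 nor RECK held one. The letters TATAAA (10.8% of windows), TGANTCA (6.59%) and AGAACA (12.4%) were absent from all 3 windows, which says nothing of the factors that read them. No DNA methylation or factor binding was measured in these samples.

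The 10 genes lie on 8 chromosomes (GRCh38). TIMP1 (ENSG00000102265.12) is at chrX:47582408-47586789, TIMP2 (ENSG00000035862.12) at chr17:78852977-78925387, TIMP3 (ENSG00000100234.12) at chr22:32801705-32863041 and RECK (ENSG00000122707.12) at chr9:36036913-36124455. ADAM28 (ENSG00000042980.13), ADAM7 (ENSG00000069206.15) and ADAM9 (ENSG00000168615.13) are on chromosome 8, with ADAM9 at 38996754 to 39105445. ADAM15 (ENSG00000143537.14) is at chr1:155050566-155062775, ADAMTS1 (ENSG00000154734.16) at chr21:26835755-26845409 and MMP14 (ENSG00000157227.14) at chr14:22836560-22849041.

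Libraries held 77759122 to 98616465 counts. Mitochondrial genes took 6.87% ± 0.174 of parental counts and 15.1% ± 0.415 of LNCaP-enzaR counts (SD over 3 libraries), and when these genes were left out the same number of the 10 genes, 7, passed the limits given next. Levels are given as counts per 1000000 (CPM) after scaling of the libraries by TMM, and differences as log2 fold changes of LNCaP-enzaR over parental with their standard error (SE) from the edgeR quasi-likelihood fit across all genes. A gene is called changed when its Benjamini-Hochberg adjusted p does not exceed 0.05 and its fold is 1.5 or more. Of the 10 genes, 8 passed the filter on low counts and 7 of those met the limits, 3 higher and 4 lower, whereas 42.7% of all 19711 genes tested did so (23.3% higher and 19.5% lower). Groups did not overlap for 7 of the 8, against 70.6% of all genes tested. Since the genes were picked from this contrast, nothing is read from these shares. In bulk RNA, fewer cells making a transcript and less transcript per cell cannot be told apart.

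**Figure D1:**
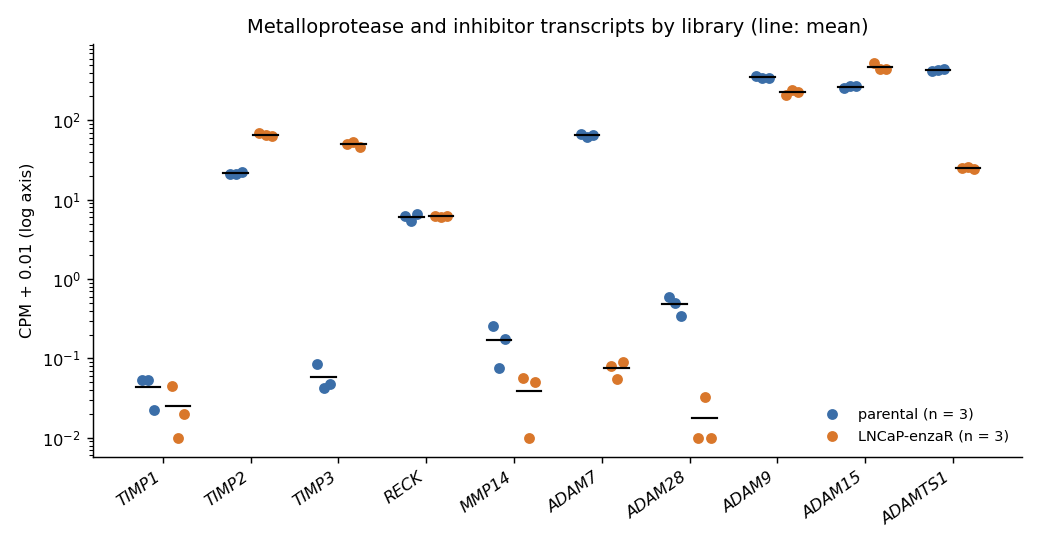
Level of each of the 10 genes in every library, in CPM plus a small constant (given on the axis) so that libraries at 0 can be drawn, on a log axis. Points are libraries of parental LNCaP and LNCaP-enzaR (n = 3 each) and lines are means. TIMP3 and ADAM7 show the widest separation, in opposite directions, while RECK points coincide and TIMP1 lies near the counting limit in both lines.

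Among the inhibitors, TIMP3 showed the widest separation. Parental libraries held 7, 3 and 3 TIMP3 counts and LNCaP-enzaR libraries 4392, 4670 and 4642. These correspond to 0.0756, 0.0330 and 0.0382 CPM against 50.9, 52.9 and 46.8 CPM. Every resistant library thus lay far above every parental library, and the parental values were near the limit set by 3 counts, which was 0.0302 to 0.0382 CPM. The ratio of summed counts was 1009, with an exact 95% interval of 590 to 1895 that covers counting error only. Leaving out single libraries moved the fitted log2 fold change of 9.94 (SE 0.155) between 9.71 and 10.41.

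TIMP2, which blocks MMPs and also takes part with MMP14 in activating the precursor of MMP2, was present in both lines. Parental libraries measured 20.8, 20.9 and 22.5 CPM and LNCaP-enzaR libraries 68.7, 65.0 and 63.1 CPM. All 3 resistant libraries were higher than every parental library. The means were 21.4 ± 0.934 and 65.6 ± 2.86 CPM (SD, n = 3 each). The log2 fold change was 1.62 (SE 0.065), or 3.07-fold. Exons of other genes covered 9.52% of its exonic bases, and because the strand setting of the counting is not stated, reads there could not be assigned to strand.

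RECK, a glycolipid-anchored inhibitor of MMPs at the cell surface, was at a similar level in both lines. Values were 6.17, 5.42 and 6.57 CPM in parental cells and 6.15, 6.13 and 6.30 CPM in LNCaP-enzaR. The resistant libraries fell inside the parental range. Summed counts, 1580 against 1697, gave a ratio of 1.03 after scaling, with an exact 95% interval of 0.959 to 1.10, and the fitted log2 fold change was 0.03 (SE 0.103).

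TIMP1, the inhibitor often abundant in stroma and blood cells, was close to absent in all 6 libraries. Counts were 4, 4 and 1 in parental cells and 3, 0 and 1 in LNCaP-enzaR. The groups overlapped, and at this depth no difference was detectable.

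These differences changed which inhibitors made up the TIMP transcripts. Levels can be compared between genes only per length, so counts were divided by exon length and expressed as a percentage of all TIMP genes. TIMP3 made up 0.485%, 0.211% and 0.229% of this level in the parental libraries and 49.9%, 52.2% and 49.7% in LNCaP-enzaR. TIMP2 made up 98.6%, 98.9% and 99.5% in parental libraries and 49.9%, 47.5% and 49.7% in LNCaP-enzaR, so that both transcripts were at similar levels per length of all exons in the resistant line. With the length of the longest transcript in place of all exons, the TIMP3 percentage in LNCaP-enzaR was 37.7%. TIMP4, the remaining TIMP gene, had no counts in parental cells and 3, 5 and 14 in LNCaP-enzaR, at least 7.02-fold higher against a limit of 3 counts over the group. TIMP4 did not pass the filter on low counts, most of its counts came from 1 library, and 14.2% of its exonic bases are shared with SYN2.

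**Figure D2:**
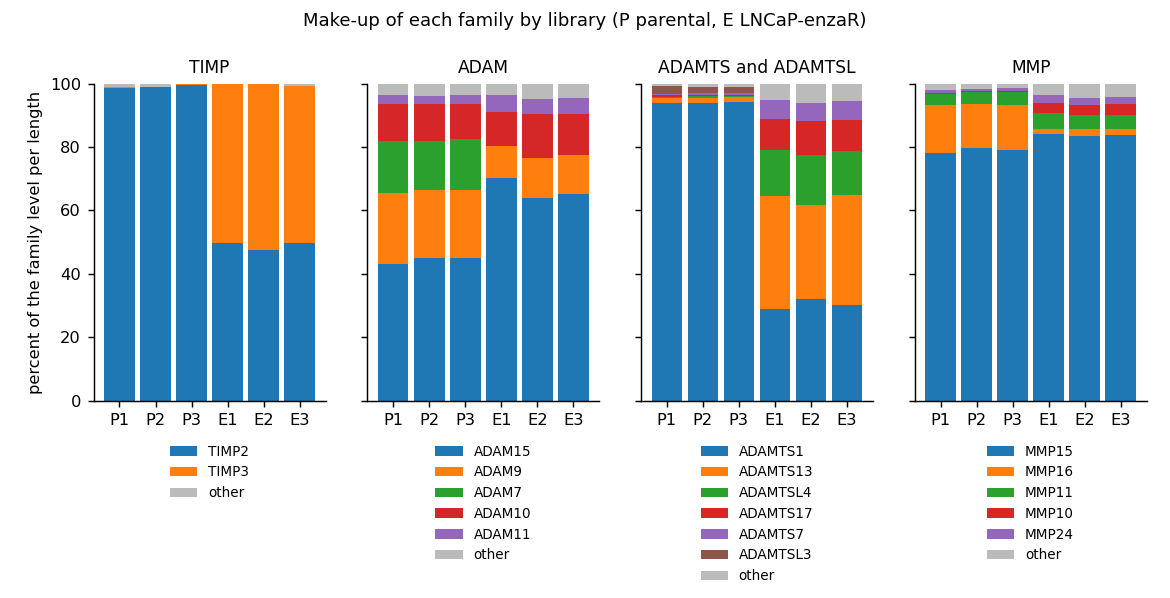
Percentage of each family's level per length held by its most abundant genes in each library of parental LNCaP and LNCaP-enzaR, for the TIMP, ADAM, ADAMTS and MMP families. The TIMP bars pass from nearly all TIMP2 to similar parts of TIMP2 and TIMP3, and the ADAMTS bars from nearly all ADAMTS1 to several genes.

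Of the ADAM transcripts, ADAM7 and ADAM28 were nearly lost. ADAM7, an ADAM without a working catalytic site that is known mainly from the epididymis, held 6202, 5689 and 5093 counts in parental cells and 6, 4 and 8 in LNCaP-enzaR. In CPM this was 67.0, 62.5 and 64.8 against 0.0695, 0.0453 and 0.0806. The parental libraries were all high and close to each other. Parental counts exceeded resistant counts by a ratio of 986 after scaling (exact 95% interval 624 to 1664), and the fitted log2 fold change was -9.92 (SE 0.130). ADAM7 lies on chromosome 8 (GRCh38, 24440930 to 24526970).

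ADAM28, known from lymphocytes and the epididymis and able to cut IGF-binding protein, lies 81915 bases from ADAM7 at 24294069 to 24359014 of the same chromosome. It was much weaker than ADAM7. Counts were 54, 45 and 26 in parental cells and 0, 2 and 0 in LNCaP-enzaR, again without overlap. The parental sum exceeded the resistant sum by a ratio of 65.3, and the few resistant counts left a wide exact 95% interval of 17.7 to 545. The fitted log2 fold change of -5.76 (SE 0.763) depended on the library with 2 counts and was -8.40 without it.

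ADAM9 and ADAM15, which are active sheddases expressed in many epithelia, were abundant in both lines and differed in opposite directions. ADAM9 measured 356.9, 345.1 and 340.1 CPM in parental cells and 207.9, 240.0 and 225.2 CPM in LNCaP-enzaR. Each resistant library was below each parental library. The log2 fold change was -0.63 (SE 0.059), which is close to the fold limit. It was -0.53 with upper-quartile scaling and -0.57 without LNCaP-enzaR replicate 1, both short of the limit.

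ADAM15, whose disintegrin part can bind integrins, measured 257.2, 267.0 and 267.5 CPM in parental cells and 531.6, 447.4 and 449.4 CPM in LNCaP-enzaR. Replicate 1 was the highest resistant library, and the groups did not overlap. The means of 264 ± 5.79 and 476 ± 48.0 CPM gave a log2 fold change of 0.85 (SE 0.067), or 1.80-fold.

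The ratio of ADAM9 to ADAM15 counts within a library does not depend on library scaling. It was 1.39, 1.29 and 1.27 in parental cells and 0.391, 0.536 and 0.501 in LNCaP-enzaR. Every resistant library was thus below every parental library. These counts are not divided by length, so a ratio above 1 does not mean more ADAM9 than ADAM15 transcript. Per length, ADAM15 was the most abundant ADAM transcript in both lines, at 44.4% ± 1.06 of the ADAM level in parental cells and 66.4% ± 3.34 in LNCaP-enzaR (39.0% and 62.2% by longest transcript). ADAM9 made up 21.7% ± 0.492 in parental cells and 11.7% ± 1.33 in LNCaP-enzaR, and 32.7% and 18.8% by longest transcript. ADAM7 supplied 16.0% ± 0.539 in parental cells (12.8% by longest transcript) and 0.0134% in LNCaP-enzaR.

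ADAMTS1, a secreted protease that cuts versican and aggrecan and restrains blood vessel growth, was the most abundant of the 10 genes per length in parental cells. Libraries measured 420.0, 426.2 and 440.8 CPM in parental cells and 25.2, 25.7 and 24.2 CPM in LNCaP-enzaR. Variation within a line was small beside the distance between lines. The log2 fold change was -4.10 (SE 0.059), or 17.1-fold lower.

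MMP14, a membrane-type MMP that cuts collagen and activates the MMP2 precursor, was scarce in both lines. Counts were 23, 6 and 13 in parental cells and 4, 0 and 4 in LNCaP-enzaR, too few to pass the filter. The parental libraries were higher in CPM, with means of 0.160 and 0.0289, and the ratio of summed counts was 5.49 (exact 95% interval 2.54 to 13.5). MMP2 itself held no counts in parental cells and 11, 4 and 9 in LNCaP-enzaR.

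The order of the 10 genes by level per length also differed between the lines. In parental cells, on a scale that sums to 1000000 per library, it ran ADAMTS1 (207), ADAM15 (141), ADAM9 (69.2), ADAM7 (51.0), TIMP2 (12.1) and RECK (3.83), with ADAM28, MMP14, TIMP1 and TIMP3 all below 1. In LNCaP-enzaR it ran ADAM15 (205), ADAM9 (36.0), TIMP3 (31.0), TIMP2 (29.97), ADAMTS1 (9.74) and RECK (3.16), with ADAM7, TIMP1, MMP14 and ADAM28 below 1. The ranges of ADAM9 and TIMP3, and of TIMP3 and TIMP2, overlapped in LNCaP-enzaR. With the length of the longest transcript, ADAM9 (71.7) and TIMP2 (40.6) both stood above TIMP3 (24.7) there, so the likeness of these levels depends on the length used. The scarce genes at the end of each order also overlapped their neighbours.

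Genes that overlap the 10 genes, and the nearest tested gene on each side of them, were examined next. SYN3, a synapsin gene on the opposite strand in whose intron TIMP3 lies, held no counts in parental cells and 33, 37 and 37 in LNCaP-enzaR, at least 34.1-fold higher (edgeR adjusted p = 9.49e-06). None of the TIMP3 exonic bases are shared with exons of another gene (GENCODE v44), and the strand setting of the counting is not stated. Whether SYN3 counts include TIMP3 reads was not tested. FBXO7, an F-box protein 302875 bases from TIMP3, rose by 0.77 on the log2 scale (SE 0.057, edgeR adjusted p = 2.66e-08). SYN1, which has the same arrangement around TIMP1, held 4, 5 and 0 against 6, 1 and 2 counts.

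Among the genes overlapping ADAM7 or ADAM28 and their nearest tested genes, the called genes were lower. A long noncoding RNA antisense to ADAM7 (ENSG00000253643.6) held 63, 68 and 68 counts in parental cells and 0, 5 and 0 in LNCaP-enzaR. Its exons cover 4.37% of the ADAM7 exonic bases. Whether its counts include ADAM7 reads could not be told, since the strand setting is not stated. NEFL, a neurofilament gene 423984 bases from ADAM7, fell from 16.1 ± 0.448 to 2.22 ± 0.271 CPM (edgeR adjusted p = 1.21e-11). STC1, a secreted glycoprotein hormone encoded 439262 bases from ADAM28, fell from 5.60 ± 0.497 to 0.334 ± 0.135 CPM (edgeR adjusted p = 5.01e-10). Within 1000 kilobases on each side of ADAM7, a distance chosen after the values were seen, 7 of 13 other tested genes were called, all lower. ADAM28, itself 1 of the 10 genes, was among these 7. Around TIMP3, 8 of 14 were called, 6 higher and 2 lower. ADAM9, farther along chromosome 8, had 8 of 18 called, 2 higher and 6 lower. Around TIMP1 11 of 28 were called (6 higher, 5 lower), around TIMP2 10 of 26 (5 and 5) and around RECK 12 of 28 (6 and 6). For ADAM15 the count was 18 of 64 (13 higher, 5 lower), for MMP14 11 of 42 (6 and 5). ADAM28 had 6 of 13 and ADAMTS1 1 of 2, all lower. The 6 around ADAM28 include ADAM7. Over all genes tested, 42.7% were called, 23.3% higher and 19.5% lower.

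ADAMTS5, the aggrecanase that adjoins ADAMTS1 at a distance of 72512 bases, held 24, 25 and 25 counts in parental cells and none in LNCaP-enzaR, at least 25.8-fold lower. On its other side, APP, the amyloid precursor gene, had a log2 fold change of -0.30 (SE 0.050), under the fold limit. LGALS3BP, a secreted glycoprotein next to TIMP2, rose from 13.2 ± 0.704 to 75.0 ± 7.66 CPM (edgeR adjusted p = 4.54e-12). GLIPR2, next to RECK, was called lower (log2 fold change -0.76, SE 0.094, edgeR adjusted p = 5.70e-06), while RECK itself had 0.03. Beside ADAM9, PLEKHA2, an adaptor protein, was called lower (-1.92, SE 0.205, edgeR adjusted p = 1.23e-06), and TM2D2, whose start overlaps that of ADAM9, had 0.16 (SE 0.061), under the fold limit. Beside MMP14, LRP10, a lipoprotein receptor relative, was called higher (0.85, SE 0.067, edgeR adjusted p = 4.21e-08) and MRPL52 had -0.21 (SE 0.080). The pseudogene YBX1P10 beside RECK was called lower (-0.62, SE 0.149, edgeR adjusted p = 0.00203). ARAF and ELK1 beside TIMP1 had 0.04 and -0.25, CEP295NL within TIMP2 had -1.09 (SE 0.801), and DCST1, DCST1-AS1 and EFNA4 around ADAM15 had -0.55, -0.28 and 0.11, none of them called. Over the neighbours of all 10 genes, 13 of 23 tested neighbours were called, 4 higher and 9 lower. Of all genes tested, 42.7% were called, 23.3% higher and 19.5% lower.

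**Figure D3:**
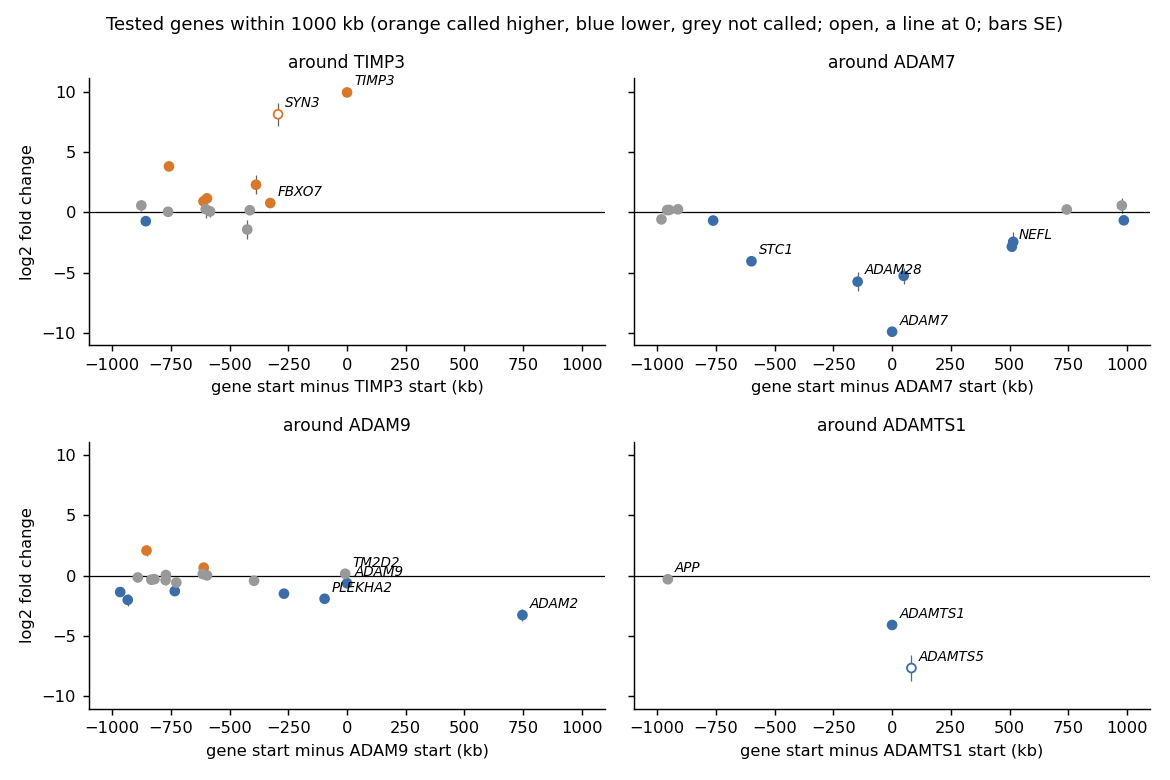
Fitted log2 fold change (LNCaP-enzaR over parental) of tested genes against their distance in kilobases from TIMP3, ADAM7, ADAM9 and ADAMTS1; 1 gene is not drawn. Bars are SE, colours mark called genes and open points have a line at 0 counts, and all 7 called genes other than ADAM7 itself around it lie below 0.

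Other genes of these pathways came from lists written with earlier results of the data known. Of 4 tested inhibitors, 3 were called, all higher, against 23.3% of all genes tested called higher. The median log2 fold change was 1.18 against 0.01 over all genes tested. SPOCK1, a secreted proteoglycan with inhibitor domains, rose from 739, 773 and 661 counts to 2071, 2296 and 2378, or from 8.30 ± 0.276 to 24.7 ± 1.16 CPM (edgeR adjusted p = 2.30e-10). Its relative SPOCK2 rose from 0.667 to 1.16 CPM (edgeR adjusted p = 0.00603). A2M, alpha-2-macroglobulin, which traps proteases of many classes, rose from 4, 11 and 0 counts to 39, 41 and 38 (edgeR adjusted p = 0.00111).

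Of 9 other ADAM genes tested, 5 were called higher and 1 lower (median 0.63), against 23.3% and 19.5% of all genes tested. ADAM12, a sheddase known from muscle and placenta, held 27, 46 and 45 counts in parental cells and 649, 634 and 794 in LNCaP-enzaR, a rise of 4.06 on the log2 scale (SE 0.182, edgeR adjusted p = 1.06e-10). ADAM11, a catalytically inactive neural family member, rose from 12.0 ± 0.591 to 26.7 ± 1.94 CPM (edgeR adjusted p = 9.41e-09). ADAM21, a testis-expressed family member, rose from 35, 46 and 29 to 106, 130 and 107 counts (edgeR adjusted p = 6.70e-05). ADAM2, a sperm protein and the nearest tested gene above ADAM9, was called lower, from 35, 39 and 31 counts to 5, 2 and 4. The general sheddases ADAM10 and ADAM17, which TIMP3 can block, did not reach the fold limit, with log2 fold changes of 0.38 (SE 0.062) and -0.47 (SE 0.091).

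Among 15 other ADAMTS and ADAMTS-like genes tested, 5 were called higher (against 23.3% of all genes tested) and 3 lower (against 19.5%). Their median log2 fold change of 0.15 was not stable. Leaving out parental replicates 1, 2 and 3 in turn gave 0.24, 0.66 and -0.05, leaving out LNCaP-enzaR replicate 2 gave 0.31, and requiring 10 counts in every library gave 1.47. ADAMTSL3, which has no protease domain, fell from 1228, 1178 and 979 counts to 6, 13 and 10 (log2 fold change -6.91, SE 0.171, edgeR adjusted p = 2.97e-13). ADAMTS15, a proteoglycanase, fell from 1.87 to 1.03 CPM (edgeR adjusted p = 0.000822). In the other direction, ADAMTS12 rose from 2, 6 and 11 counts to 177, 214 and 190 (edgeR adjusted p = 2.97e-08). ADAMTSL4, a fibrillin-binding protein, rose from 1.62 to 10.7 CPM (edgeR adjusted p = 6.94e-11), and ADAMTS17 from 2.28 to 9.54 CPM (edgeR adjusted p = 1.58e-09). Of the ADAMTSL4 exonic bases, 14.4% are shared with other genes. Per length, ADAMTS1 supplied 94.1% ± 0.23 of the level of all ADAMTS and ADAMTS-like genes in parental cells and 30.4% ± 1.61 in LNCaP-enzaR. ADAMTS13, the protease of von Willebrand factor, supplied 1.54% ± 0.140 in parental cells and 33.3% ± 3.36 in LNCaP-enzaR. Their order was not stable, with ADAMTS1 at 32.1% and ADAMTS13 at 29.5% in LNCaP-enzaR replicate 2. By longest transcript the LNCaP-enzaR means were 30.2% and 30.4%.

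Of 12 other MMP genes tested, 6 were called higher (against 23.3% of all genes tested) and 2 lower (against 19.5%). Their median log2 fold change was 0.53, but -0.19 when 10 counts were required in every library, 1.19 with DESeq2 and 1.15 without the filter. MMP16, a membrane-type MMP, fell from 66.7, 64.6 and 66.0 CPM to 6.37, 7.22 and 6.93 CPM (log2 fold change -3.26, SE 0.072, edgeR adjusted p = 9.37e-14). MMP24, another membrane-type MMP, rose from 1.28 to 2.84 CPM (edgeR adjusted p = 4.16e-05), with 22.1% of its exonic bases shared with other genes. MMP10, a stromelysin, rose from 20, 18 and 6 counts to 153, 122 and 157 (edgeR adjusted p = 4.89e-07). The most abundant MMP per length, MMP15, had a log2 fold change of -0.34 (SE 0.064), under the fold limit. In the MMP cluster on chromosome 11 (102520508 to 102955732), chosen after the values were seen, 4 of 5 tested genes were called higher and MMP7, matrilysin, lower, at no more than 157 counts in any library.

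**Figure D4:**
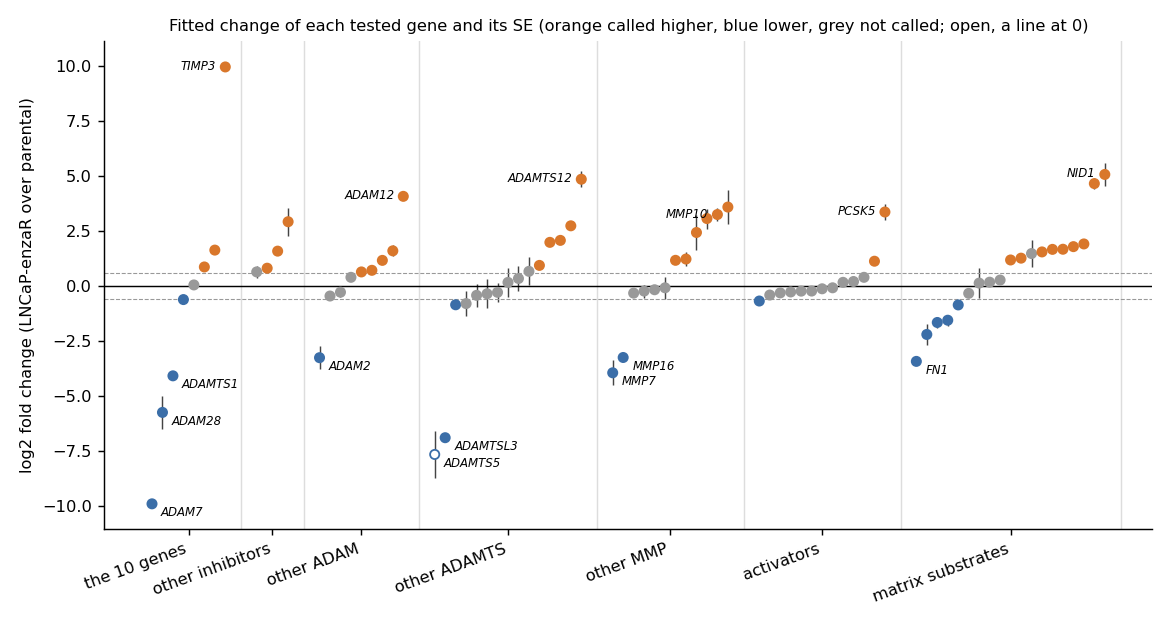
Fitted log2 fold change (LNCaP-enzaR over parental) of each tested gene, with its SE, for the 10 genes and the lists of related genes. Orange is called higher, blue called lower, grey not called, open points have a line at 0 counts and dashed lines mark the 1.5-fold limit. TIMP3 at 9.94 and ADAM7 at -9.92 lie at the extremes.

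Metalloprotease precursors are trimmed by proprotein convertases, and tetraspanins and iRhoms escort ADAM proteins to the surface. Of 13 such genes tested, 3 were called, 2 higher and 1 lower, against 42.7% of all genes tested. The median log2 fold change of the 13 was -0.14. FURIN, the convertase of many ADAM and membrane-type MMP precursors, fell from 86.3 ± 3.79 to 53.2 ± 5.47 CPM (edgeR adjusted p = 1.05e-06). Its relative PCSK5 rose from 5, 22 and 16 counts to 161, 129 and 174 (edgeR adjusted p = 1.22e-06), and TSPAN10, an escort of ADAM10, from 2.10 to 4.55 CPM (edgeR adjusted p = 3.76e-06).

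Of 19 tested matrix substrates, 9 were called higher (against 23.3% of all genes tested) and 5 lower (against 19.5%). Their median log2 fold change was 1.17, but 0.23 without LNCaP-enzaR replicate 1, 0.39 with DESeq2 and 0.35 without the filter on low counts. FN1, fibronectin, fell from 337 ± 7.05 to 31.0 ± 1.01 CPM (edgeR adjusted p = 7.20e-15), and LAMA1 and COL4A2, a laminin and a type IV collagen chain, had log2 fold changes of -1.57 (SE 0.240) and -1.67 (SE 0.246). LAMB2, a laminin chain, rose from 80.0 ± 2.27 to 298 ± 35.5 CPM (edgeR adjusted p = 3.22e-11). NID1 and LAMB3, both basement membrane components, rose from low levels, NID1 from 0, 6 and 3 to 87, 94 and 148 counts and LAMB3 from 22, 11 and 11 to 423, 297 and 435. Versican, the classical ADAMTS1 substrate, held 5, 2 and 0 against 3, 4 and 2 counts of its gene VCAN and was not tested.

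Markers of prostate luminal cells were present in both lines. All 10 were tested, with 2 called higher and 5 lower, against 23.3% and 19.5% of all genes tested. Their summed levels were 4229 to 4322 CPM in parental cells and 3253 to 3410 CPM in LNCaP-enzaR. The androgen-regulated kallikreins KLK3 and KLK2 fell from 1190 ± 42.1 to 140.7 ± 9.26 CPM and from 379 ± 7.34 to 94.9 ± 8.55 CPM (edgeR adjusted p = 4.38e-14 and 4.84e-12), and the transcription factor HOXB13 from 539 ± 3.22 to 302 ± 16.9 CPM (edgeR adjusted p = 5.62e-09). KRT8, a keratin, and STEAP2, a metalloreductase, rose from 397 ± 19.6 to 886 ± 122 CPM and from 387 ± 20.2 to 696 ± 97.5 CPM (edgeR adjusted p = 1.31e-08 and 6.11e-07). The 6 fibroblast markers in the table summed to 14.7 to 17.9 CPM in parental cells and 8.24 to 9.03 CPM in LNCaP-enzaR, and of 4 tested, LUM and PDGFRB were called higher and COL1A1 lower. DCN held 0, 1 and 0 against 2, 20 and 7 counts, PDGFRA 0, 0 and 0 against 7, 0 and 3. Endothelial and leukocyte markers summed to 5.60 to 6.15 CPM against 3.96 to 4.46 CPM, nearly all of it VWF, while PECAM1, CDH5 and CD3E held at most 4 counts in any library. Their part in the results was not tested.

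Genes whose levels followed TIMP3 or ADAM7 most closely were sought by Pearson correlation of log2 CPM over the 6 libraries, among 10514 protein-coding genes. For TIMP3 they were CERK (ceramide kinase), ST7 and CSMD1, and for ADAM7 TACC3 (a spindle protein), PRDX6 (a peroxiredoxin) and CKS1B (a cyclin-dependent kinase subunit). With both lines pooled, 878 genes correlated with TIMP3 above 0.99 and 1387 with ADAM7, and all 6 points of each correlation share the split between the lines.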

How the data were processed

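The authors trimmed reads with Cutadapt, aligned them with STAR to GRCh38.p13 and counted them per gene with featureCounts on GENCODE annotation. Deposited values are raw counts for each gene, without any normalization. The strand setting and the treatment of reads mapping to several places are not given in the sources used here. Group and replicate number were taken from the sample titles.

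Counts were analysed here with edgeR 4.0.16 in R 4.3.3: filterByExpr, which left 19711 of 35554 genes holding at least 99.96% of each library's counts, TMM scaling, the robust quasi-likelihood test without covariates, and Benjamini-Hochberg adjustment. The limits, an adjusted p of 0.05 and a fold of 1.5, are those of the study, which used DESeq2 (version 1.42.0 was an alternative here). The fit was tested on simulated data. Levels per length are counts per kilobase of exon (GENCODE v44), scaled to 1000000. Ratios of summed counts carry exact Clopper-Pearson intervals. Fold limits against groups at 0 use 3 counts over the group. Intervals and limits cover counting error only, as amplified reads are not independent molecules.

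The 10 genes and all lists were chosen with earlier results of these data known. From each list, up to 3 called genes at each end with at least 1 CPM in a line were named, together with genes overlapping or adjoining the 10 genes and, for TIMP3 and ADAM7, the 3 most correlated protein-coding genes with at least 5 CPM in a line. Of the neighbouring genes, 1 is included in counts and otherwise not reported here. Departing from this rule, noncoding neighbours that were not tested or not called are left unnamed, apart from DCST1-AS1. The choice of any other named gene followed its values. Alternatives covered the tool (DESeq2), scaling (RLE, library totals, upper quartile), the filter (none, or 10 counts in each library), protein-coding genes alone, a replicate block, leaving out each library, other fold limits and the longest transcript as length. Omission of mitochondrial genes was added once the data had been seen.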

Additional observations from a re-analysis of the deposited data

How the results depend on the processing

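Without a minimum fold 13074 genes were called, and 5561 at a fold of at least 2, against 8425. Requiring at least 10 counts in every library removed genes that were near 0 in either line and left 4 of the 10 genes called, 5 other ADAMTS genes and 3 other MMP genes. DESeq2 called 8776 genes. Lengths of the longest transcript gave TIMP3 37.7% of the TIMP level in LNCaP-enzaR, ADAM15 39.0% and 62.2% of the ADAM level in parental cells and LNCaP-enzaR, and ADAM7 12.8% in parental cells. Upper-quartile scaling moved the median log2 fold change of all genes by 0.10. Leaving out single libraries gave 8372 to 8517 called genes, and 7 to 8 of the 10 genes.

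Replicate numbers did not pair the libraries: deviations of libraries with the same number correlated at -0.065 to -0.00041. With the number as a replicate block, 8212 genes and 7 of the 10 genes were called.

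The main limits are 3 flasks a line, a single resistant line, an unstated strand setting and, for ADAM28, MMP14, TIMP1 and parental TIMP3, counts too few for a precise fold.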
